A study of Mus musculus with 6 samples.

Results

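Ligands for receptors of natural killer cells, T cells and macrophages were followed in mouse brain tumors. The 8 genes were chosen by name, H60b, Raet1d, Raet1e, Ulbp1, Pvr, Cd274, Cd276 and Cd47, and all 8 had a row among the 24537 of the count table. The genes were picked with results of this comparison in view, the low H60b value among them, so their values are a description and carry no test.

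The tumors were made by in utero electroporation, in which plasmids are driven into cells of the embryonic brain, in mice of the outbred CD-1 IGS strain. By their titles all 6 tumors carried a mutant receptor gene, PdgfraD482V, and DNp53, a dominant-negative form of p53. The titles of 3 libraries add FOXR2, a forkhead transcription factor, and those of the other 3 say Control, so that the comparison is of tumors with and without FOXR2 as titled. Libraries held 13429489 to 17927025 counts. Values of a gene are listed below for replicates 1, 2 and 3 in that order, ± after a mean is the SD over the 3 libraries of a group, and ± after a log2 fold change (FOXR2 minus Control by title) is its standard error. Age of the mice, the promoter of the constructs and pooling of animals are not given in the labels.

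NKG2D, encoded by Klrk1, is an activating receptor of natural killer cells and some T cells. Its mouse ligands, the Rae-1 proteins (Raet1 genes), the H60 proteins and MULT1 (Ulbp1), resemble MHC class I molecules, and stressed, infected or transformed cells display them. Checkpoint ligands work mostly the other way, since Cd274 (PD-L1) restrains T cells and Cd47 keeps macrophages from engulfing the cell that bears it.

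The titles could not be checked on the electroporated gene. Foxr2 had 22, 1 and 7 counts with FOXR2 in the title against 4, 10 and 7 for Control. In the sheet deposited with the counts each of the 6 libraries has the other group word, and every direction below turns round if that sheet is right. Defining markers of the oligodendrocyte lineage were abundant in all libraries, with Olig2 at 446 to 813 CPM (read counts corrected for sequencing depth with TMM factors). Pdgfra lay at 2018 to 3599 CPM. Of the 8 lineage markers tested 0 were called by edgeR (2 with an unadjusted p under 0.05), with Ptprz1 nearest (adjusted p = 0.0536). DESeq2 called Ptprz1, and 1837 of 13101 genes over all tested. The 8 markers summed to 7514 to 9879 CPM with FOXR2 in the title against 5990 to 6755 for Control. Pdgfra and Olig1 had adjusted p-values of 0.188 and 0.288.

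The NKG2D ligand genes include close copies, which bears on how far their counts can be assigned. Reads were 51 bases long, so the windows of 51 bases of each gene's transcripts were compared with those of all other genes in GENCODE M21 on either strand. Of 1389 windows of Raet1d, 768 (55.3%) also occurred in Raet1e, and 44.2% of the windows of Raet1e occurred in Raet1d or H60b. The annotated span of Raet1d lies within that of Raet1e on the same strand. Some shared windows may thus be the same genomic bases, and these were not counted apart from copies at another place. H60b shared 83 of its 1107 windows (7.5%), all of them with Raet1e, whose annotated span on chromosome 10 overlaps that of H60b on the same strand. The reads of Raet1d and Raet1e therefore cannot be told apart over much of their length, and 1024 windows were private to H60b. One coding window that Raet1d and Raet1e share base for base is shown first. It lies on the plus strand of GRCm38 in exon 3 of each gene, at chr10:22362715-22362765 for Raet1d and chr10:22174320-22174370 for Raet1e. Below it stand the coding window of H60b nearest to any other NKG2D ligand gene and its partner in H60c, both in exon 4, at chr10:22286271-22286321 on the plus strand and chr10:3259791-3259841 on the minus strand. Capitals mark the 1 base that differs between H60b and H60c.
Raet1d and Raet1e: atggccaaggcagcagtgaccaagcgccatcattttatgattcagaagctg
H60b: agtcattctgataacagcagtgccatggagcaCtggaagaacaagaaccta
H60c: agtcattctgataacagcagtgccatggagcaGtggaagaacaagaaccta

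Ulbp1 shared 1.67% of its windows with other genes, Cd47 0.676% and Pvr none. For Cd274 12.3% were shared, most of them with an antisense transcript annotated over the gene. Cd276 shared 9.9%, all of them with a transcript on the opposite strand. Whether the counting used strand is not given in the sources used here, so reads of those antisense transcripts cannot be told apart from reads of Cd274 and Cd276.

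**Figure D1:**
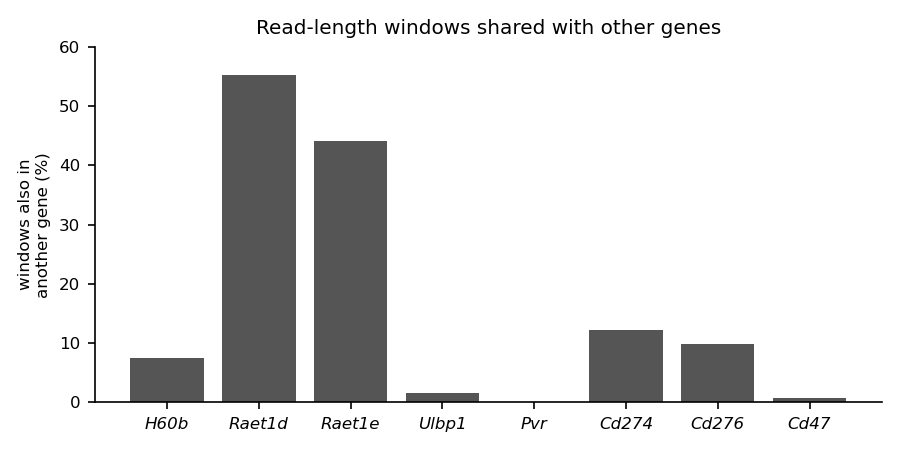
Share of 51-base transcript windows, in percent of each ligand gene's windows, that also occur in a transcript of another gene on either strand (GENCODE M21). Bars for Raet1d and Raet1e stand at 55.3% and 44.2%, far above those of the other 6 genes, which reach at most 12.3%.

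Levels of the 8 genes spanned a wide range once divided by exon length. The mean over the 6 libraries was 25.7 ± 4.57 CPM per kilobase for Cd276, 9.12 ± 3.32 for Cd47, 4.91 ± 1.59 for Pvr, 1.97 ± 1.70 for Cd274, 1.69 ± 1.67 for H60b, 0.416 ± 0.247 for Ulbp1, 0.182 ± 0.171 for Raet1d and 0.0243 ± 0.0292 for Raet1e (SD, n = 6 libraries). Cd276 was above Cd47 in 6 of 6 libraries and their ranges did not overlap. The ranges of every other pair of neighbours in this order overlapped. Cd274 was above H60b in 3 of 6 libraries, so these 2 genes have no fixed order.

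H60b (chr10:22158586-22288849, plus strand, GRCm38) encodes an NKG2D ligand of the H60 family. Its counts were 2, 9 and 5 with FOXR2 in the title against 82, 66 and 41 for Control. On the CPM scale these came to 0.130, 0.569 and 0.365 against 4.92, 3.93 and 2.38. All libraries titled FOXR2 were below all those titled Control, and FOXR2 replicate 1 was under the level of 3 counts. The group means were 0.355 ± 0.220 and 3.74 ± 1.28 CPM, and the fitted log2 fold change was -3.37 ± 0.63, or 10.3-fold lower. The lower mean rests on 16 counts in all. The floor of 3 counts came to 0.174 to 0.219 CPM over the libraries.

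Raet1d and Raet1e encode Rae-1 proteins, whose genes are annotated at chr10:22360552-22374139 and chr10:22158569-22374139 on the plus strand. Raet1d had 2, 1 and 1 counts with FOXR2 in the title against 8, 11 and 3 for Control. The groups did not overlap, but the libraries titled FOXR2 were all under the floor of 3 counts and Control replicate 3 was at it. Raet1e had 2, 2 and 0 counts against 0, 0 and 1, which is at or under the floor in every library. Neither gene passed the filter on low counts, no fold is given, and a difference in Raet1e was not detectable at this depth.

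Ulbp1 (chr10:7440362-7473638, minus strand) encodes MULT1, another NKG2D ligand, and varied within both groups. It stood at 5.22, 3.23 and 0.584 CPM with FOXR2 in the title against 3.54, 2.92 and 1.28 CPM for Control. FOXR2 replicate 3 was the lowest library and FOXR2 replicate 1 the highest, so the Control range lay inside the FOXR2 range. The fitted log2 fold change was 0.23 ± 0.76, and it lay between -0.43 and 0.71 with 1 library left out.

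For other genes of the NKG2D ligand family few or no counts were listed. Raet1a, Raet1b and Raet1c were listed at 0 in all 6 libraries. They have no position in GENCODE M21, and how reads shared between close copies were counted is unknown here, so these zeros set no limit on their level. H60c had 1 count each in Control replicates 2 and 3 and 0 in the other libraries. H60a was not analysed here.

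Pvr (CD155; chr7:19903578-19921160, minus strand) is bound by the activating receptor DNAM-1 and by the inhibitory receptor TIGIT. It stood at 29.8, 24.7 and 29.8 CPM with FOXR2 in the title against 24.3, 49.0 and 22.7 CPM for Control. Control replicate 2 stood apart on the high side, and the other 5 libraries lay within 22.7 to 29.8 CPM. The fitted log2 fold change was -0.19 ± 0.32, and without Control replicate 2 it was 0.27.

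Of 4 related nectin genes, 0 were called and 2 were fitted above and 2 below 0, with a median of -0.07 against 0.01 over all tested genes. Nectin2, which TIGIT also binds, had group means of 59.7 ± 19.5 (FOXR2) and 55.2 ± 15.1 CPM (Control). Nectin1 and Nectin3 had log2 fold changes of 0.25 and -0.25. Nectin4 ranged from 0.457 to 5.30 CPM, with a log2 fold change of -1.37.

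Cd274 (chr19:29367455-29388095, plus strand) encodes PD-L1, which engages PD-1 on T cells and is induced by interferon-gamma. It stood at 4.05, 17.0 and 12.7 CPM with FOXR2 in the title against 3.36, 1.85 and 3.83 CPM for Control. FOXR2 replicates 2 and 3 were high, while FOXR2 replicate 1 lay just above Control replicate 3. The groups did not overlap, their means were 11.2 ± 6.58 and 3.01 ± 1.04 CPM, and the log2 fold change was 1.90 ± 0.57. With 1 library left out it lay between 1.47, without FOXR2 replicate 2, and 2.30, without FOXR2 replicate 1.

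Cd47 (chr16:49800533-49915010, plus strand) signals to macrophages through SIRP-alpha (Sirpa). It stood at 55.6, 86.8 and 75.5 CPM with FOXR2 in the title against 35.7, 35.2 and 54.7 CPM for Control. All libraries titled FOXR2 were above all those titled Control, though FOXR2 replicate 1 and Control replicate 3 differed by little. The means were 72.6 ± 15.8 and 41.9 ± 11.1 CPM, and the log2 fold change was 0.79 ± 0.26.

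Cd276 (B7-H3; chr9:58524298-58555437, minus strand), a B7 family protein that many solid tumors display, was the most abundant member per length. It stood at 109, 61.9 and 97.1 CPM with FOXR2 in the title against 96.5, 105 and 93.6 CPM for Control. FOXR2 replicate 2 was the lowest and the other 5 libraries lay within 93.6 to 109 CPM. The fitted log2 fold change was -0.14 ± 0.24, and 0.07 without FOXR2 replicate 2.

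**Figure D2:**
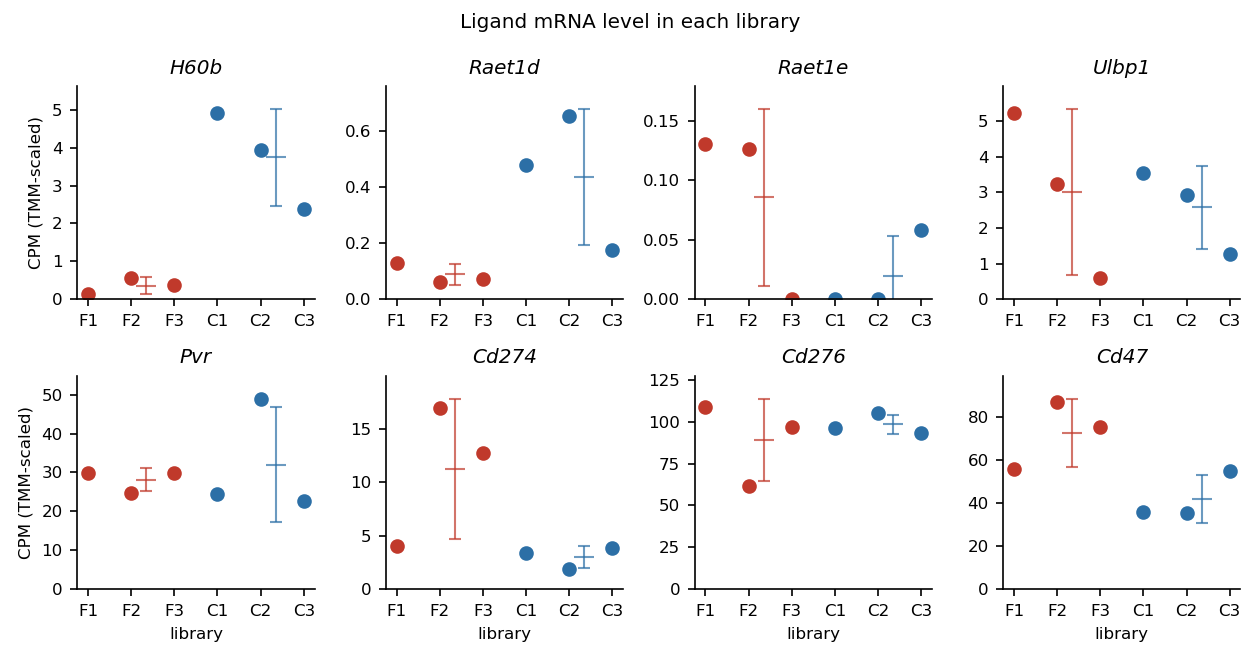
TMM-scaled CPM (y axis, linear from 0, its own scale in each panel) of the 8 ligand genes in each library (x axis; F1 to F3 are FOXR2 replicates 1 to 3, C1 to C3 Control replicates 1 to 3). Short horizontal lines with bars are group means ± SD (n = 3 each), and the libraries titled FOXR2 lie below those titled Control for H60b and Raet1d and above them for Cd274 and Cd47.

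In the fit across all 13101 tested genes, 6 members were tested and 1, H60b, was called. H60b passed the filter on low counts only through the libraries titled Control. Its 2, 9 and 5 counts with FOXR2 in the title were under the minimum of 10. Over all tested genes 2.29% were called, 0.908% as higher and 1.38% as lower with FOXR2 in the title, and nothing is read from the members' count since this contrast helped to choose them. The groups did not overlap for 3 of the 6 tested members (H60b, Cd274 and Cd47), against 30.3% of all tested genes (13.1% higher and 17.2% lower). Nothing is read from this share either. The call of H60b was lost under 12 of 13 alternatives, each library left out included, and kept with DESeq2. Its direction and that of Cd274 and Cd47 were the same in all 13. The alternatives reuse the same 6 libraries and the groups of these 3 genes do not overlap. The kept direction was thus nearly fixed in advance, and nothing is read from it.

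**Figure D3:**
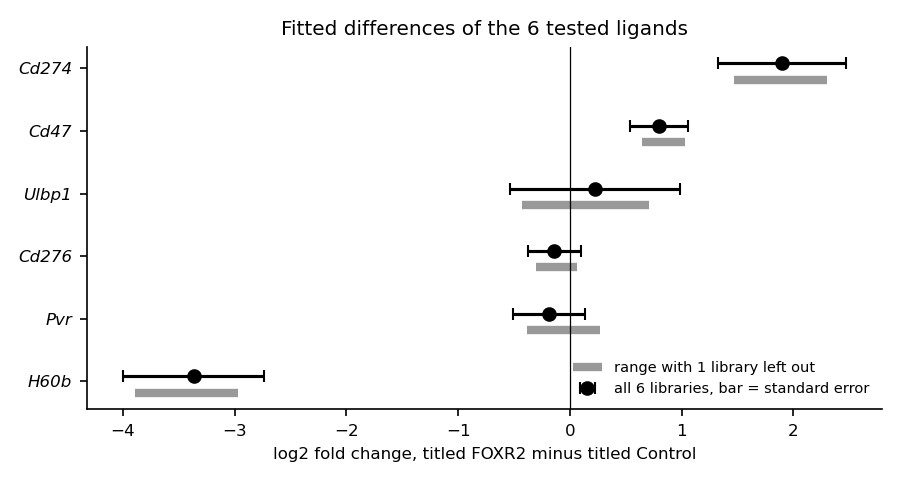
Fitted log2 fold change (x axis, titled FOXR2 minus titled Control) of the 6 tested ligand genes. Black points and bars give the edgeR value and its standard error with 6 libraries, and grey bars the range with 1 library left out. The grey bars of H60b, Cd274 and Cd47, whose groups do not overlap, stay on 1 side of 0. Those of Ulbp1, Pvr and Cd276 reach across it.

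Some genes of the interferon-gamma pathway were high in the same libraries as Cd274, and others were not. This pathway runs from the receptor (Ifngr1, Ifngr2) through the kinases Jak1 and Jak2 to Irf1, which drives Cd274 transcription. Of its 10 listed genes all were tested and 0 were called by edgeR, while the genes called by DESeq2 included Irf1, Nlrc5 and Socs1. Over all tested genes DESeq2 called 1837 of 13101. Of the 10, 5 had an unadjusted p under 0.05 in edgeR, against 3257 of 13101 over all tested genes. The median on the log2 scale was 1.17, against 0.01 over all tested genes. This median lay between the values of Stat2 and Irf9, listed genes that are not among the steps named above. Irf1 stood at 43.7, 167 and 117 CPM with FOXR2 in the title against 45.6, 33.8 and 41.2 CPM for Control (log2 fold change 1.44 ± 0.45, edgeR adjusted p = 0.112). FOXR2 replicate 1 lay within the Control range. Socs1, the feedback inhibitor of the Jak kinases, had 13.9, 40.3 and 21.8 against 7.92, 3.75 and 8.48 CPM (edgeR adjusted p = 0.0775). Nlrc5, the activator of MHC class I genes, reached 70.2 and 63.8 CPM in FOXR2 replicates 2 and 3 and 8.82 to 14.2 in the other libraries (edgeR adjusted p = 0.137).

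The receptor and kinase genes varied less over the libraries. Ifngr1 lay within 23.2 to 27.0 CPM and Ifngr2 within 34.8 to 58.0 over all libraries. Jak1 lay within 62.6 to 142 CPM, and Jak2 reached 109 CPM in FOXR2 replicate 3 and at most 74.0 in the others. As a description over the 6 libraries, which share this high and low split, the log2 level of Cd274 had a Pearson r of 0.98 with Irf1, 0.96 with Socs1, 0.60 with Jak2, 0.55 with Jak1, 0.40 with Ifngr2 and 0.08 with Ifngr1. Between Cd274 and Cd47 r was 0.93, and between H60b and Cd47 it was -0.80.

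**Figure D4:**
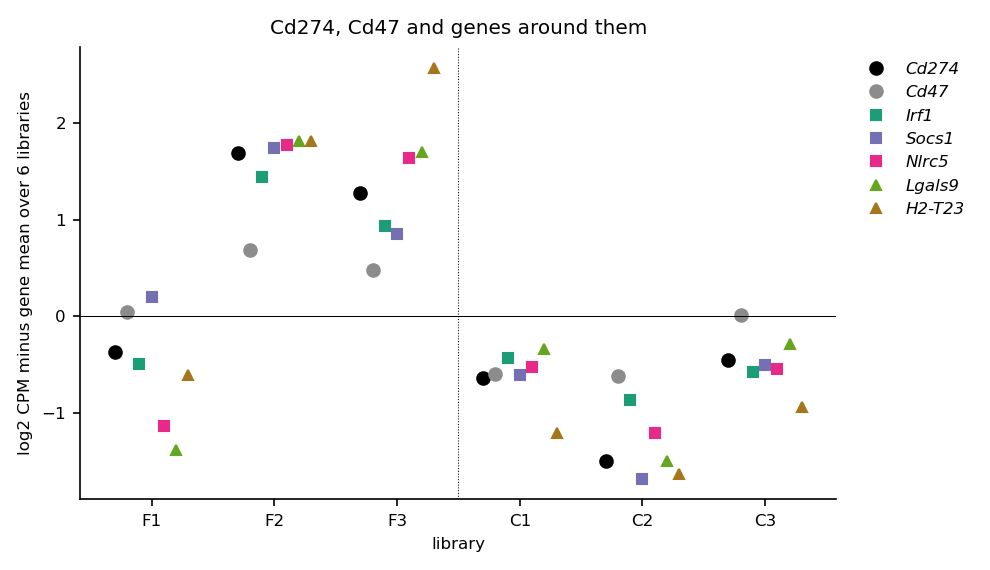
Log2 CPM minus the gene's mean over the 6 libraries (y axis) of Cd274, Cd47, 3 interferon-gamma pathway genes (squares) and 2 other inhibitory ligands (triangles) in each library (x axis, F1 to F3 titled FOXR2 and C1 to C3 titled Control). All 7 genes are highest in F2 and F3, and F1 lies within the Control range for Irf1, Nlrc5 and Lgals9.

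Promoters of the members were searched for 3 motifs on both strands in RefSeq windows of 250 bases before to 50 after the start (GRCm38.p6): the interferon element (GAAA, any 2 bases, GAAA), the gamma-activated element TTCNNNGAA and the ETS element CCGGAAG, the last because the series title speaks of ETS circuits. They occurred in 3.44%, 8.3% and 8.86% of 32851 promoter windows. Windows were found for 6 of the 8 members, all but H60b and Pvr. Among these 6, 0 had the interferon or the gamma-activated element and 1, Cd47, had the ETS element. Of 13 other genes looked up (the pathway genes, Lgals9, H2-T23 and Cd200), 11 had a window, 4 of these the interferon element, 1 the gamma-activated element and 0 the ETS element. The windows of Cd274, Cd47 and Lgals9 are given because the 3 genes were highest in FOXR2 replicates 2 and 3 while only the last holds an interferon element. They lie at chr19:29367188-29367487 on the plus strand, chr16:49855404-49855703 on the plus strand and chr11:78984875-78985174 on the minus strand. Capitals mark the motifs, which are the ETS element in Cd47 and the interferon element, read on the other strand, in Lgals9.
Cd274: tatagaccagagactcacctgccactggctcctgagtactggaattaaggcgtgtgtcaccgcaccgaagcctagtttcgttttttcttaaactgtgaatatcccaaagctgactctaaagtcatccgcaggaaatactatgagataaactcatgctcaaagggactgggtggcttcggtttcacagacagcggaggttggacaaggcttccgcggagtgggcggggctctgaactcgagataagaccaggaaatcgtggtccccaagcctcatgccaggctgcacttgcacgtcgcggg
Cd47: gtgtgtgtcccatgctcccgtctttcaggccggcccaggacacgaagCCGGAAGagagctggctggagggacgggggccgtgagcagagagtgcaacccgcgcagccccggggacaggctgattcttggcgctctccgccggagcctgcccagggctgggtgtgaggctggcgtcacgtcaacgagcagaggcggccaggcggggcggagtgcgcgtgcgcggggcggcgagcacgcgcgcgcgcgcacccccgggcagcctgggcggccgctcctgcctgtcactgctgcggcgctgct
Lgals9: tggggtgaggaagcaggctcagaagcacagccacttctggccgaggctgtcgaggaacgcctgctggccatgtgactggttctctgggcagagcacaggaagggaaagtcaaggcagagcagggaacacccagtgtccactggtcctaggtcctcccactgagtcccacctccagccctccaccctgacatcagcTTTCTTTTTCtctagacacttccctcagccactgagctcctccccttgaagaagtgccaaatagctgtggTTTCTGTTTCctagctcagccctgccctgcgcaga

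The matches describe these letters only, and the missing elements in Cd274 say nothing on factors that act elsewhere in the gene.

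Among other inhibitory ligands, 5 of 9 were tested and edgeR called 1, Cd200, while DESeq2 called Cd200, Cd24a, H2-T23 and Lgals9. All 5 had fitted values above 0, the median being 2.18 on the log2 scale. Over all 13101 tested genes edgeR called 300 and DESeq2 1837. Of these tested genes 6648 were fitted above 0, with a median of 0.01. For the fifth listed ligand, Lgals3, the value above 0 rests on FOXR2 replicate 2. Lgals3 stood at 0.457, 125 and 0.146 CPM against 1.98, 0.954 and 11.6. Cd200, a neuronal and tumor surface protein that quiets myeloid cells, rose from 24.5 ± 2.95 CPM (Control) to 71.3 ± 22.7 (FOXR2) (log2 fold change 1.54 ± 0.27, edgeR adjusted p = 0.0437). The call was kept with DESeq2, RLE factors, total counts, no filter and limma-voom. It was lost with the replicate block, with animal sex and with any library left out, where the log2 fold change lay between 1.29 (FOXR2 replicate 3) and 1.77 (FOXR2 replicate 1 left out). H2-T23, the class I molecule Qa-1 that engages the inhibitory receptor NKG2A, stood at 3.65, 19.7 and 33.3 CPM with FOXR2 in the title against 2.40, 1.79 and 2.90 for Control (edgeR adjusted p = 0.0741). Lgals9, galectin-9, a ligand of TIM-3, had 29.9, 275 and 254 CPM against 61.6, 27.5 and 64.1 (edgeR adjusted p = 0.182). FOXR2 replicates 2 and 3 were high for both, while FOXR2 replicate 1 lay just above the Control range for H2-T23 and inside it for Lgals9. Cd24a, whose product binds an inhibitory Siglec and also marks immature neurons, stood at 106, 54.0 and 140 CPM against 18.2, 41.4 and 6.45 (edgeR adjusted p = 0.108).

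Neuron markers are given beside Cd200 and Cd24a. Of 6 tested neuron markers edgeR called 1, Syt1 (log2 fold change 4.08, adjusted p = 0.0436), and Dcx and Tubb3 came next (adjusted p = 0.0738 and 0.0952). The Syt1 call was kept with RLE factors, total counts, no filter and without FOXR2 replicate 2, and lost with limma-voom, the replicate block, animal sex and any other library left out. DESeq2 called Syt1, Dcx, Tubb3, Snap25 and Rbfox3, against 1837 of 13101 over all tested genes. The groups overlapped for Tubb3 and Stmn2. The 6 markers summed to 391 to 420 CPM with FOXR2 in the title against 60.9 to 121 for Control. Their part in the Cd200 and Cd24a values was not tested. In bulk tumors fewer cells of a type and less RNA per cell cannot be told apart.

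In the rest of the B7 family, 2 of 6 genes were tested and 0 called. Icosl, the ligand of ICOS on T cells, stood at 1.89, 2.78 and 2.92 CPM against 0.899, 1.07 and 1.22, with no overlap of the groups (log2 fold change 1.24, edgeR adjusted p = 0.137). Pdcd1lg2, the other PD-1 ligand, had no more than 0.120 CPM in any library, and Vtcn1 had 0 counts in all. The 7 costimulatory and adhesion ligands gave 0 calls among 4 tested, with Cadm1, a ligand of CRTAM, having means of 83.6 ± 31.4 CPM (FOXR2) and 52.9 ± 15.2 (Control; adjusted p = 0.264 in edgeR).

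Genes that handle these ligands on the cell surface gave 0 calls among 6 tested, with a median log2 fold change of 0.02. Cmtm6, which protects PD-L1 from degradation, had group means of 52.7 ± 5.85 (FOXR2) and 56.6 ± 8.38 CPM (Control), and Cmtm4, its relative, 78.3 ± 24.6 and 80.8 ± 3.03. The sheddases Adam10 and Adam17, which can release NKG2D ligands from the membrane, had log2 fold changes of 0.44 and -0.45 (edgeR adjusted p = 0.264 and 0.292). Mmp14, also a sheddase, ranged from 0.652 to 58.8 CPM, with its highest value in FOXR2 replicate 2. Leaving the members aside, 1 B7 gene (Icosl) had an unadjusted p under 0.05 in edgeR. Among the nectins, the costimulatory ligands, the receptors and the handling genes there were 0. Apart from members, DESeq2 called none of the genes in these lists.

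Markers of natural killer cells and T cells were near 0 in most libraries. Of 9 natural killer cell markers 3, Ncr1, Prf1 and Nkg7, had 0 counts in all libraries, and the 9 summed to 0.349 to 1.96 CPM. The 1 that was tested, Klrb1c, had an adjusted p of 0.720 in edgeR. The 8 T cell markers in the table summed to 0.119 to 0.438 CPM in 5 libraries and 4.18 in FOXR2 replicate 2, where Cd4, which microglia and macrophages can also express, made up 3.35. The receptor genes Cd226, Cd96, Ctla4 and Klrc1 had 0 counts throughout. Of 20 receptor genes 4 were tested and 0 called, and Sirpa, the Cd47 receptor, was the one at high level, with means of 80.9 ± 36.7 CPM (FOXR2) and 66.5 ± 22.7 (Control; adjusted p = 0.676 in edgeR).

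FOXR2 replicate 2 differed from the rest in its microglia and macrophage genes. The 16 markers summed to 1738 CPM there and to 6.33 to 15.3 in the other 5 libraries. Of these markers 4 were tested and 0 called by edgeR (Ctss, Laptm5 and P2ry12 nearest, adjusted p = 0.135, 0.141 and 0.243). Cd86 and Cd48, ligands of myeloid cells, reached 7.40 and 7.09 CPM there and had 0 counts in the other libraries. Cd274 was high in FOXR2 replicate 3 as well, where the marker sum was 7.22 CPM, and its log2 fold change without FOXR2 replicate 2 was 1.47. The part of microglia and macrophages in the Cd274 values was not tested. For Cd47 that value was 0.64 and for H60b -3.90. The 8 endothelial and mural markers summed to 1.53 to 15.7 CPM, and of the 2 tested 0 were called by edgeR (Flt1 and Kdr, adjusted p = 0.198 and 0.666).

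**Figure D5:**
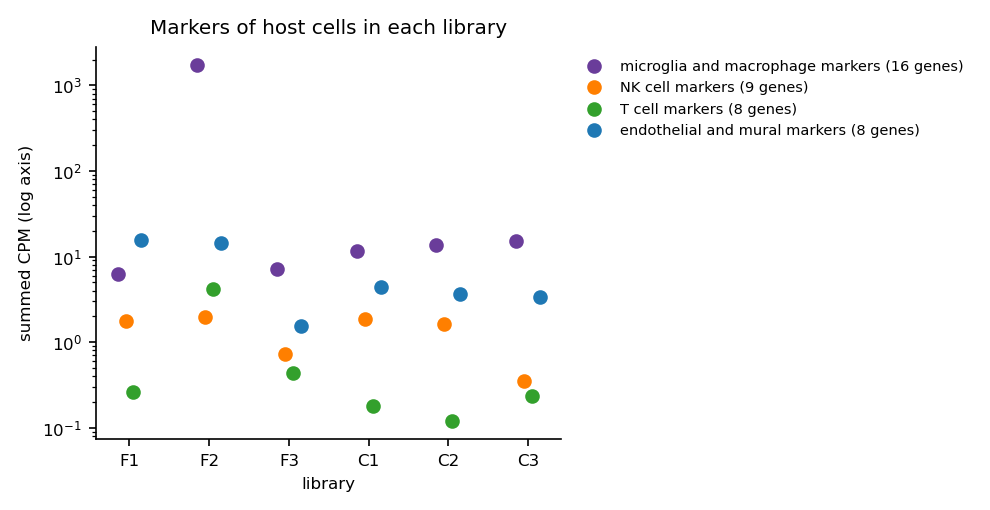
Summed CPM (y axis, log scale) of markers of microglia and macrophages, natural killer cells, T cells and vessels in each library (x axis, F1 to F3 titled FOXR2 and C1 to C3 titled Control). The microglia and macrophage sum of F2 stands at 1738 CPM and those of the other libraries at 6.33 to 15.3, while the natural killer cell sum stays under 2.0 in all 6.

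The genes most like each member over the 6 libraries, by the Pearson correlation of log2(CPM + 0.5) among 12128 genes, are given as a description. For H60b they were Farsa, a subunit of a cytosolic aminoacyl-tRNA synthetase, Myg1, the proline-degrading enzyme gene Prodh, the mitochondrial synthetase gene Iars2 and the splicing factor gene Prpf4, with r of 0.996 to 0.998. For Cd274 they were Tulp4, Ahr, Parp12, Mapre3 and Mink1 (r of 0.986 to 0.996), of which Parp12 is an interferon-stimulated gene and Ahr a ligand-activated transcription factor. For Cd47 they were Tom1, Dhrs1, Ackr1, Dnajc6 and Cplx1 (0.987 to 0.998). For Ulbp1 the list was Ap4s1, Brca2, Haus7, Abhd17c and Cd93 (0.978 to 0.990), for Pvr Mtm1, Mia3, Arfip1, Ttc37 and Cxadr (0.964 to 0.987) and for Cd276 Emx2, Suclg2, Nr2e1, Lta4h and Spg7 (0.974 to 0.997). With 6 libraries such values are common, and 643 genes had an r over 0.9 with H60b and 39 with Pvr.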

How the data were processed

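RNA-seq read counts per gene symbol were used as the authors deposited them, with no normalization, for 6 mouse brain tumor libraries. TopHat, DESeq2 and the human build hg19 are named in the submitters' processing notes. For the counting tool, its annotation, its use of strand and reads matching several places, the sources used here say nothing. A group word per library stands in the deposited sample sheet and goes against the titles for 6 of 6 libraries. Groups were taken from the titles.

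Libraries held 13429489 to 17927025 counts, so that 3 counts, the floor used here, came to 0.174 to 0.219 CPM (read counts corrected for sequencing depth with TMM factors). This floor covers counting error only. Low genes were removed with filterByExpr (count minimum 10), and the rest were fitted with the quasi-likelihood F test of edgeR 4.0.16 in R 4.3.3, with no covariate and Benjamini-Hochberg adjustment over 13101 genes. Calls are at an adjusted p under 0.05. Log2 fold changes are titled FOXR2 minus titled Control, and ± after them is the standard error. The test was checked on simulated counts.

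The alternatives were DESeq2 1.42.0, RLE factors, total counts alone, no filter, voom of limma 3.58.1, a replicate block, animal sex (read from Xist and Y-linked genes) and each library left out. Members and lists were chosen with earlier results of these data known, so no p is given for the 8 members. From each list the called genes and the 3 with the smallest adjusted p are named, and ligands and handling genes averaging 50 CPM or more. Left out are 1 gene of the costimulatory and adhesion ligands and 1 of the receptors that this rule would name. Other genes named were chosen after their values were seen. The values of 1 listed gene are not reported here. For each tested member the 5 most correlated genes are named. Read-length windows and exon lengths came from GENCODE M21 (GRCm38) transcripts, promoters from RefSeq (GRCm38.p6). The labels do not say whether each library is a different animal. Xist counts were 1, 538 and 2 with FOXR2 in the title and 2, 576 and 800 for Control. Each group therefore held both sexes and more than 1 animal. Whether libraries of the same sex within a group come from different animals is unknown. The p-values cover only the spread among the libraries, part of which may be technical.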

Additional observations from a re-analysis of the deposited data

How the results depend on the processing

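Over all tested genes 300 were called, 1837 with DESeq2, 7 with animal sex as a covariate and 0 with the replicate block (edgeR, where 2652 had an unadjusted p under 0.05). With 1 library left out 1 to 205 were called. Of the members 1 was called, and 3 with DESeq2 (H60b, Cd274 and Cd47). With RLE factors, total counts, no filter, limma-voom, the replicate block or animal sex 0 were called, with 3 or 4 at an unadjusted p under 0.05, and 0 with any library left out, with 2 or 3 so. Over all genes 3257 of 13101 had an unadjusted p under 0.05 in the main edgeR fit, and 2241 to 3268 genes with 1 library left out. Nothing is read from the members' counts. Of the other listed genes 2 were called, 14 with DESeq2, 1 with limma-voom, 0 with the replicate block or animal sex (14 and 15 at an unadjusted p under 0.05 in edgeR) and 0 to 1 with 1 library left out. The cause was not tested. Same-numbered libraries did not deviate together (correlations of -0.016, -0.24 and -0.010). Differently numbered ones ranged from -0.20 to 0.25. These values show no pairing by replicate number, and with 3 libraries per group they cannot exclude it.

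H60b ranged from -3.90 to -2.97 on the log2 scale over its 13 alternatives, Cd274 from 1.47 to 2.30 and Cd47 from 0.64 to 1.03. Ulbp1 kept its sign in 9 of 13, Pvr and Cd276 in 12 each. Depth limits H60b in the libraries titled FOXR2 and all values of Raet1d and Raet1e.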

Other observations

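Klrk1, the gene of the NKG2D receptor, stood at 0.718, 12.1 and 11.1 CPM with FOXR2 in the title against 3.30, 0.834 and 1.28 CPM for Control (edgeR adjusted p = 0.229). The 9 natural killer cell markers summed to 0.349 to 1.96 CPM over the libraries. Among them Ncr1, Prf1 and Nkg7 had 0 counts in all 6 libraries, and Klrb1c had at most 1.56 CPM. Of the adaptor genes of NKG2D, Hcst had at most 0.696 CPM. Tyrobp, a further adaptor gene listed with the receptors, had 37.1 CPM in FOXR2 replicate 2. It had 0.0730 CPM in FOXR2 replicate 3 and 0 counts in the other libraries. None of the 7318 read-length windows of Klrk1 occurred in another annotated gene. Over the 6 libraries its log2 level had a Pearson r of 0.90 with that of Cd274, given as a description.

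Vsir, the gene of the checkpoint protein VISTA, varied most among the tested B7 genes. It stood at 0.457, 36.0 and 0.511 CPM with FOXR2 in the title against 8.39, 3.75 and 23.4 CPM for Control (edgeR adjusted p = 0.986). FOXR2 replicate 2 is the library rich in microglia and macrophage markers, but Control replicate 3, the next highest, had a marker sum of 15.3 CPM, and the part of these cells in Vsir was not tested. Lgals3, galectin-3, reached 125 CPM in FOXR2 replicate 2 and 11.6 in Control replicate 3, and at most 1.98 in the other libraries. Cd40 stood at 3.34 CPM in Control replicate 2 and at most 0.949 in the others, and Control replicate 2 was also the library with the highest Pvr.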
